A study of Mus musculus with 10 samples.

Results

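The chemokine ligands of the mouse jejunum were examined at postnatal day 5, to ask how interleukin-23 (IL-23) made in keratinocytes changes the signals that guide white blood cells in the intestine. The ligands were chosen by symbol, as all genes named Ccl, Cxcl, Cx3cl or Xcl followed by a digit, and 39 of the 24062 gene symbols counted met this rule. KSR23 mice carried a cassette for both IL-23 subunits (p19 and p40) in the ROSA26 locus, silenced by a floxed STOP signal (the R23 allele), together with K14-cre, a cre recombinase under the keratin 14 promoter, which is active in keratinocytes. WT mice had neither label, and the study describes its controls as littermates. Both groups were of the C57BL/6 strain and of the same age, and no treatment was named for either group. RNA from whole jejunum was sequenced in 5 WT and 5 KSR23 libraries. In such bulk samples, fewer cells of a type and less RNA per cell cannot be told apart.

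Chemokines are small secreted proteins that draw leukocytes along a gradient by binding receptors coupled to G proteins, and their families (CC, CXC, CX3C and XC) are named after the spacing of the first cysteines. In the small intestine, CCL25 and CCL28 guide lymphocytes and plasma cells to the mucosa, CCL20 draws cells that carry CCR6 to the epithelium above lymphoid follicles, CCL11 and CCL24 attract eosinophils, and CXC ligands with a glutamate-leucine-arginine (ELR) motif attract neutrophils. Cytokines that act on epithelial and stromal cells, among them IL-17, IL-22, interferon-gamma and tumour necrosis factor, are known inducers of several of them.

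Library totals ran from 25.5 to 32.0 M counts in WT and from 31.2 to 60.9 M in KSR23, so that 3 counts corresponded to 0.0427 to 0.119 CPM (counts in each 1 M of library counts, after scaling by trimmed mean of M-values). Of the genes in the cassette, Il23a (p19) was not called, with 1 to 14 counts in WT libraries and 8 to 34 in KSR23 libraries (log2 fold change 0.95, SE 0.59, adjusted p = 0.270). Il12b (p40) rose. It had 0 to 5 counts in WT libraries and 9 to 40 in KSR23 libraries (log2 fold change 2.32, SE 0.66, adjusted p = 0.00364). Replicates 4 and 5 of both groups lay between the other libraries at most genes: each was the highest or the lowest of its group at 8.53% to 18.4% of 9737 genes, against 45.7% to 75.6% for replicates 1 to 3. Values from replicates 1 to 3 alone are therefore given beside the ligands called. The study calls the libraries biological replicates. The labels do not say whether a library holds RNA of 1 animal or of several, or whether replicates 4 and 5 were prepared apart, so n counts libraries, and if RNA was pooled the SD and p-values over 10 libraries do not measure the spread between animals. Summed counts of 4 Y-linked genes were 4330 and 9035 in KSR23 replicates 4 and 1 and 1 to 9 in the other 3 KSR23 libraries, and 492 to 6347 in WT. Of the 8 epithelial genes listed, 2 rose (Krt20 and Cdh1), and their summed level was 2738 to 5572 CPM in WT and 5439 to 9338 CPM in KSR23. The keratinocyte genes held 1 of 6 at 0 and the red blood cell genes 4 of 5. These 4 are globin genes with closely similar copies, and reads that map to more than 1 place were not counted, so their 0 does not show that the RNA was absent. Krt10 fell among the 3 keratinocyte genes tested (summed 8.67 to 17.8 CPM in WT and 5.60 to 8.81 CPM in KSR23), and the 1 red blood cell gene tested, Alas2, was not called (summed 10.1 to 45.2 CPM in WT and 16.1 to 55.4 CPM in KSR23). All 8 exocrine pancreas genes tested fell (summed 100.1 to 223 CPM in WT and 5.90 to 15.9 CPM in KSR23). Of these, Prss2, Cela2a and Sycn passed the count filter through WT libraries only, the group where they were high. Of the 49 genes called in all from the lists of receptors, cytokines, platelet chemokines and cell type markers, the quasi-likelihood test did not call 12 (Ccr7, Cdh1, Elane, Itgam, C1qc, Cd209a, Siglech, Cd8a, Cd5, Acta2, Cpa1 and Cel). With replicates 1 to 3 alone, each of the 49 had the same sign and 16 were called. These were Ccr4, Il22, Ifng, Il4, Il18, Krt20, Retnlg, Ltf, Gzma, Cpa3, Mcpt1, Prss2, Ctrb1, Cela1, Sycn and Cel.

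Of the 39 ligands, 34 were tested, having 5 or more counts in at least 1 library, and 19 of them differed between KSR23 and WT jejunum at an adjusted p under 0.05 (edgeR likelihood ratio test, Benjamini-Hochberg adjustment over all 17632 genes tested). Among all genes tested, 18.5% differed. The ligands that rose numbered 12 (9.73% of all genes rose): Ccl2, Ccl8, Ccl17, Ccl19, Ccl20, Ccl22, Ccl28, Cx3cl1, Cxcl1, Cxcl5, Cxcl9 and Cxcl10. The 7 that fell (8.76% of all genes fell) were Ccl5, Ccl11, Ccl24, Ccl25, Ccl27a, Cxcl15 and Xcl1. The quasi-likelihood F test of edgeR called 17 ligands (15.4% of all genes), without Ccl22 and Xcl1. When replicates 1 to 3 were used alone, 2 ligands, Ccl20 and Ccl11, were called by the likelihood ratio test (3.36% of all genes), and the quasi-likelihood test called Ccl20 (0.812% of all genes), while the 19 ligands called in 10 libraries kept their sign. Levels in KSR23 and WT did not overlap at 14 of the 34 ligands (14.4% of all genes), 8 of them higher (7.41% of all genes) and 6 lower (6.99%), nor at 18 of 34 in replicates 1 to 3 (19.1% of all genes).

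**Figure D1:**
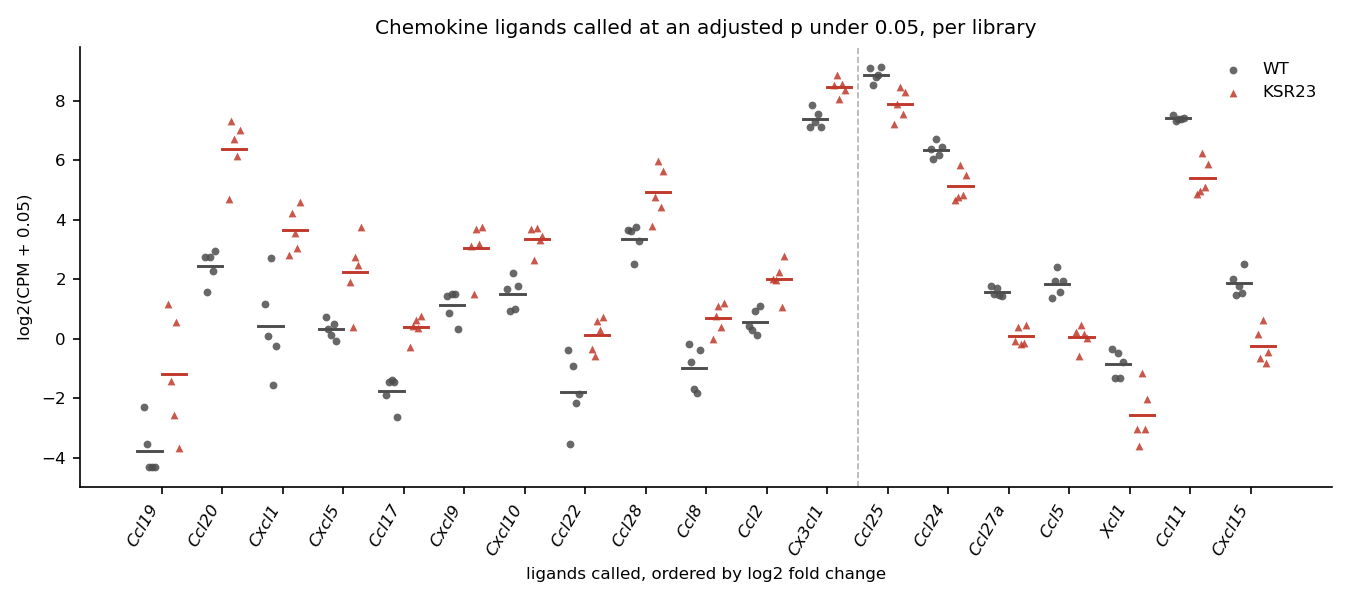
Level of the 19 called chemokine ligands in each library, as log2(CPM + 0.05), with WT as grey circles, KSR23 as red triangles and the group mean as a line. The ligands are ordered by log2 fold change, and the dashed line divides the 12 that rose from the 7 that fell. The groups do not overlap at 8 ligands that rose, among them Ccl20, Ccl17 and Cxcl10. Nor do they overlap at 6 that fell, among them Ccl11, Ccl5 and Ccl27a.

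Y-linked counts ran from 492 to 6347 in the WT libraries, while 3 KSR23 libraries held 1 to 9. A term for the Y-linked level is thus partly confounded with group and cannot be fully told apart from it. Adding the summed Y-linked level as a term left 17 ligands called, 8 higher and 9 lower (13.6% of all genes), of which 14 were among the 19. It removed 5 ligands, all with a positive estimate: Ccl2 (log2 fold change 1.02, adjusted p = 0.0972), Ccl8 (1.22, adjusted p = 0.148), Ccl22 (1.45, adjusted p = 0.184), Ccl28 (0.81, adjusted p = 0.344) and Cxcl1 (1.70, adjusted p = 0.0556). It added Ccl3 and Ccl4, which had negative estimates, and Ccl26, which was counted in KSR23 replicate 1 alone, the KSR23 library with the most Y-linked counts. Among those that were called with and without the term, the log2 fold change of Ccl20 went from 4.08 to 3.05, of Ccl19 from 4.29 to 5.76 and of Xcl1 from -1.85 to -2.82. Within KSR23, replicates 1 and 4, the libraries with Y-linked counts, lay under the other 3 at 5 of the 12 ligands that rose (Ccl8, Ccl17, Ccl20, Ccl28 and Cxcl1) and at 23.9% of all genes tested. They lay over the other 3 at Ccl19 alone of the 12 and at 20.3% of all genes. KSR23 replicate 5 was the highest KSR23 library at 7 of the 12, and replicate 1 the lowest at 5. Over 9737 genes, KSR23 replicate 5 was the highest or the lowest of its group at 9.89%, and replicate 1 at 57.1%.

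The median log2 fold change was 0.64 over the 34 ligands tested and 0.03 over all genes tested. Of the 34, 32 passed the count filter in both groups and had a median of 0.29. The other 2, Cxcl11 and Ccl26, passed through KSR23 libraries only. The remaining 5 ligands were not tested: Ccl1 had at most 4 counts in a library, and Ccl21a, Ccl21b, Ccl21c and Ccl27b were at 0 in every library. Nearly identical copies exist for part of these, since 61.3% of the 75-base stretches of Ccl21a, 100% of those of Ccl21b and 98.0% of those of Ccl27b also occur in another gene, and reads that map to more than 1 place were not counted.

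**Figure D2:**
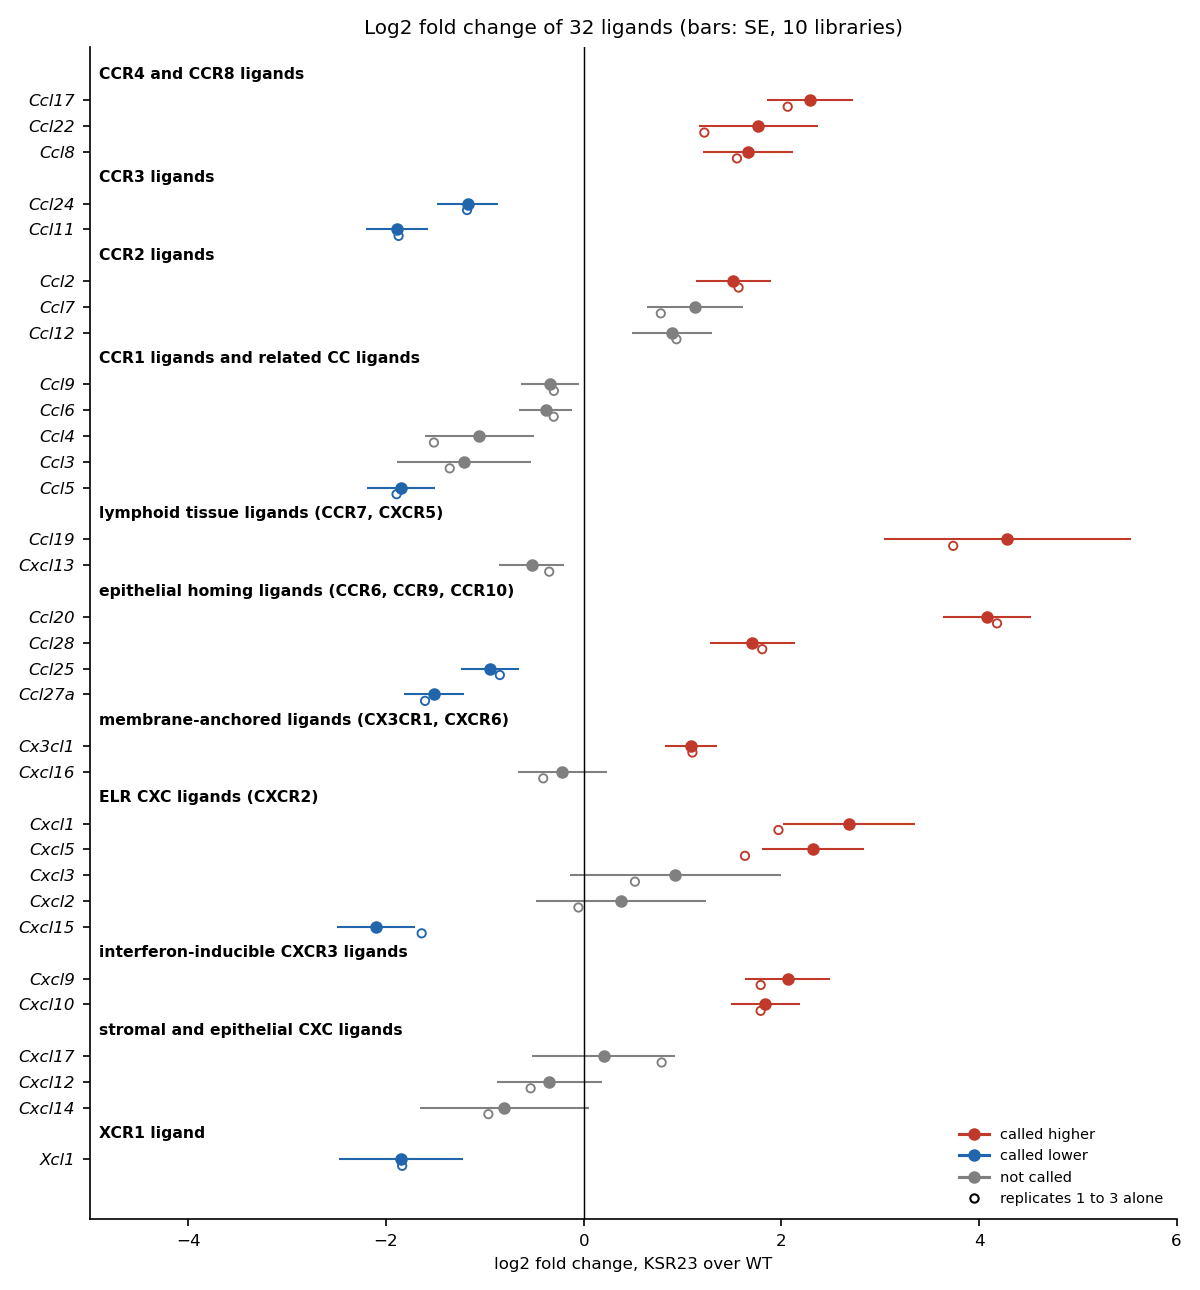
Log2 fold change, KSR23 over WT, of the 32 ligands that passed the count filter in both groups, arranged by role or known receptor. The group headed CXCR2 includes Cxcl15, which was set beside no receptor. Filled points and bars are the estimate and its SE from 10 libraries, and open circles are replicates 1 to 3 alone, which lie on the same side of 0 for all but Cxcl2, at 0.38 in 10 libraries and -0.05 in replicates 1 to 3.

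Among the ligands of CCR4 and CCR8, which guide T helper 2 cells, regulatory T cells and skin-homing T cells, the 3 members tested rose and Ccl1 was not tested. Ccl17 (chromosome 8, 94810453 to 94812036), a CCR4 ligand made by dendritic cells and epithelium, was counted 7, 9, 9, 11 and 3 times in WT (replicates 1 to 5, the order used throughout) and 55, 40, 38, 70 and 58 times in KSR23. The KSR23 libraries lay above every WT library after scaling (0.217, 0.318, 0.330, 0.317 and 0.113 CPM in WT and 0.782, 1.29, 1.51, 1.24 and 1.64 in KSR23; log2 fold change 2.29, SE 0.43, adjusted p = 4.17e-06). Ccl22 (chromosome 8, 94745590 to 94751699), the other CCR4 ligand, was counted 23, 1, 13, 6 and 6 times in WT and 52, 19, 37, 66 and 57 times in KSR23, where the WT libraries were spread from 0.0354 to 0.712 CPM and overlapped KSR23 (log2 fold change 1.77, SE 0.60, adjusted p = 0.0238). Its call rested on single libraries, since the adjusted p was 0.0735 without WT replicate 4, 0.0812 without WT replicate 5, 0.0507 without KSR23 replicate 4 and 0.0777 without KSR23 replicate 5. Ccl8 (chromosome 11, 82115185 to 82116799), which acts on mouse CCR8, was at 0.836, 0.530, 0.257, 0.230 and 0.713 CPM in WT and 0.953, 1.64, 2.11, 1.28 and 2.23 CPM in KSR23, with every KSR23 library above the WT libraries (log2 fold change 1.66, SE 0.46, adjusted p = 0.00375). With replicates 1 to 3 the log2 fold changes of Ccl17, Ccl22 and Ccl8 were 2.06, 1.22 and 1.55, none called (adjusted p from 0.0785 to 0.655).

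Ccr4, the receptor of Ccl17 and Ccl22, had a larger log2 fold change than any ligand in the fit of group alone over 10 libraries. It was counted 23, 11, 16, 19 and 32 times in WT and 1801, 753, 1151, 1941 and 1776 times in KSR23 (log2 fold change 5.71, SE 0.38, adjusted p = 1.11e-34). It was also called in replicates 1 to 3 (log2 fold change 5.85, adjusted p = 2.84e-13). Its level per kb of transcript went from 0.245 to 12.8 CPM, whereas Ccl17 went from 0.504 to 2.51 and Ccl22 from 0.146 to 0.505 CPM per kb. Ccr8 was not called (0.212 ± 0.136 CPM in WT and 0.288 ± 0.165 in KSR23, SD of 5 libraries; adjusted p = 0.676). The listed T cell genes moved in both directions: of 11 tested, Cd5 rose and Cd3g and Cd8a fell, and their summed level was 15.8 to 23.2 CPM in WT and 13.6 to 23.0 CPM in KSR23.

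Of the 3 eosinophil attractants listed for CCR3, 2 fell and Ccl26 was not called. Ccl11 (chromosome 11, 82057823 to 82062955), also called eotaxin, was at 183, 159, 169, 168 and 169 CPM in WT and at 29.2, 31.2, 75.9, 34.4 and 58.9 CPM in KSR23. The WT libraries differed little from each other and lay well above KSR23 (log2 fold change -1.89, SE 0.31, adjusted p = 2.85e-07), and replicates 1 to 3 gave a log2 fold change of -1.87 (adjusted p = 0.0346). Ccl24 (chromosome 5, 135569937 to 135573049), eotaxin-2, was at 82.2, 66.5, 105, 72.5 and 87.1 CPM in WT and 25.5, 27.0, 56.9, 28.4 and 45.2 CPM in KSR23, again with no overlap (log2 fold change -1.18, SE 0.31, adjusted p = 0.00226; replicates 1 to 3: -1.18, adjusted p = 0.322). Ccl26, the third ligand of this receptor, had 7 counts in KSR23 replicate 1 and 0 in the other 9 libraries.

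Ccr3 fell with both ligands, from 146, 70, 91, 113 and 55 WT counts to 43, 1, 23, 25 and 21 in KSR23 (log2 fold change -2.59, SE 0.51, adjusted p = 2.81e-05). Of 9 eosinophil and mast cell genes listed, 8 were in the files, Epx and Ear6 were at 0 in every library, and 4 of the 6 tested fell: Prg2, a granule protein of eosinophils and mast cells (log2 fold change -2.70, SE 0.62, adjusted p = 0.000230), and the mast cell proteases Cpa3 (log2 fold change -1.68, SE 0.40, adjusted p = 0.000780), Mcpt1 (log2 fold change -2.19, SE 0.31, adjusted p = 1.27e-09) and Mcpt4 (log2 fold change -2.34, SE 0.54, adjusted p = 0.000499). The summed level of the list was 20.8 to 38.7 CPM in WT and 16.8 to 26.8 CPM in KSR23, of which Kit, which is also expressed by interstitial cells of the gut wall, took 9.52 ± 2.87 CPM in WT and 16.9 ± 4.41 in KSR23 (SD of 5 libraries). Il4, a cytokine of T helper 2 cells and a known inducer of eotaxins, was counted 14, 28, 14, 6 and 8 times in WT and 0, 0, 0, 8 and 0 times in KSR23 (log2 fold change -3.76, SE 1.07, adjusted p = 0.00405). Whether these cells or cytokines had a part in the fall of Ccl11 and Ccl24 was not tested.

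Of the CCR2 ligands, which attract monocytes, Ccl2 rose. Ccl2 (chromosome 11, 82035571 to 82037453) was at 1.30, 1.17, 1.83, 1.04 and 2.10 CPM in WT and 3.93, 3.90, 4.65, 2.04 and 6.77 CPM in KSR23 (log2 fold change 1.52, SE 0.38, adjusted p = 0.00145; replicates 1 to 3: 1.57, adjusted p = 0.104). KSR23 replicate 4 lay within the range of WT, and the others above it. Ccl7 (0.818 ± 0.335 CPM in WT and 1.79 ± 1.02 in KSR23, SD of 5 libraries; adjusted p = 0.0933) and Ccl12 (1.04 ± 0.277 and 1.93 ± 0.751 CPM; adjusted p = 0.110) were not called, although both estimates were positive (1.12 and 0.89). Without KSR23 replicate 4 Ccl7 was called (adjusted p = 0.0212), and without KSR23 replicate 2 so was Ccl12 (adjusted p = 0.0096). Ccr2 was at 1.92 ± 0.604 CPM in WT and 2.01 ± 0.833 in KSR23 (SD of 5 libraries; adjusted p = 0.939). The macrophage and monocyte genes moved in both directions: of 11 tested, Cd14 and Itgam rose and Cd68, C1qb and C1qc fell, with a summed level of 893 to 1086 CPM in WT and 657 to 884 CPM in KSR23.

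The ligands of CCR1 and related CC ligands included the abundant Ccl6 and Ccl9, macrophage products of the mouse, and none of the 5 rose. Ccl5 (chromosome 11, 83525778 to 83530518), also called RANTES and made by T and NK cells, fell from 2.54, 3.78, 5.28, 2.94 and 3.79 CPM in WT to 1.12, 0.613, 1.31, 1.06 and 0.960 CPM in KSR23 with no overlap (log2 fold change -1.85, SE 0.34, adjusted p = 3.74e-06; replicates 1 to 3: -1.89, adjusted p = 0.0670). Ccl6 was at 306.9 ± 39.0 CPM in WT and 235 ± 66.3 in KSR23 (SD of 5 libraries; adjusted p = 0.343), and Ccl9 at 32.1 ± 6.34 and 25.3 ± 6.39 CPM (adjusted p = 0.464). Ccl3 (2.38 ± 1.87 CPM in WT and 1.04 ± 0.793 in KSR23; adjusted p = 0.227) and Ccl4 (2.04 ± 1.59 and 0.982 ± 0.424 CPM; adjusted p = 0.187), which are induced in activated macrophages and lymphocytes, were not called. Both were high in WT replicates 1 to 3 and low in WT replicates 4 and 5. The receptor Ccr1 was not called (adjusted p = 0.529).

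Xcl1 (chromosome 1, 164931644 to 164935527), lymphotactin, which T and NK cells make and which acts on XCR1 of cross-presenting dendritic cells, fell at low counts. It was counted 24, 10, 18, 12 and 14 times in WT and 5, 1, 10, 4 and 7 times in KSR23, with KSR23 replicate 3 inside the WT range (log2 fold change -1.85, SE 0.63, adjusted p = 0.0242; replicates 1 to 3: -1.84, adjusted p = 0.438). The call rested on single libraries: leaving out WT replicate 1, 3 or 5 gave an adjusted p of 0.0823, 0.0729 or 0.0651, and leaving out KSR23 replicate 1, 2 or 4 gave 0.0722, 0.0693 or 0.0901. Without KSR23 replicate 3 its log2 fold change was -2.49 (adjusted p = 0.000455). Xcr1 was not called (1.23 ± 0.510 CPM in WT and 2.03 ± 1.01 in KSR23, SD of 5 libraries; adjusted p = 0.284). Of 7 cytotoxic cell genes tested, 5 were not called. Gzma (log2 fold change -1.79, SE 0.30, adjusted p = 1.84e-07) and Nkg7 (log2 fold change -1.09, SE 0.28, adjusted p = 0.00167) fell, and the summed level of the list was 24.2 to 32.4 CPM in WT and 8.09 to 14.2 CPM in KSR23. Their part in the fall of Ccl5 and Xcl1 was not tested. Gm20743, an annotated gene that overlaps Xcl1, covers 18.7% of its exons, and the strand setting of the counting was not stated.

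The ligands of lymphoid tissue, which place lymphocytes and dendritic cells in lymph nodes and Peyer's patches, were low or undetected. Ccl19 (chromosome 4, 42754525 to 42756577), a CCR7 ligand, was counted 5, 1, 0, 0 and 0 times in WT and 154, 10, 3, 80 and 1 times in KSR23. Replicates 1 and 4 held most of the KSR23 counts, and KSR23 replicates 3 and 5 lay within the range of WT (log2 fold change 4.29, SE 1.25, adjusted p = 0.00891). Without KSR23 replicate 1 its log2 fold change was 3.57 (adjusted p = 0.0398), and without WT replicate 1 it was 6.10 (adjusted p = 0.000875). In replicates 1 to 3 it was not called (3.74, adjusted p = 0.135), and 45.3% of its 75-base stretches also occur in another gene. Cxcl13, the CXCR5 ligand that draws B cells into follicles, was not called (4.78 ± 1.54 CPM in WT and 3.31 ± 0.827 in KSR23, SD of 5 libraries; adjusted p = 0.283).

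The KSR23 libraries that were high in Ccl19 were also high in Fcer2a, the low-affinity IgE receptor of follicular B cells. It was counted 0, 3, 0, 0 and 0 times in WT and 64, 1, 1, 99 and 4 times in KSR23 (log2 fold change 4.58, SE 1.46, adjusted p = 0.0143). Of 7 B cell genes, 6 were in the files, Pax5 was at 0 in every library, and Fcer2a alone of the 5 tested was called. It passed the count filter through KSR23 replicates 1 and 4 only, and the other 3 KSR23 libraries held 1, 1 and 4 counts. The list had a summed level of 5.90 to 8.08 CPM in WT and 4.87 to 10.4 CPM in KSR23. Ccr7, the receptor of Ccl19, rose from 20, 8, 40, 10 and 17 WT counts to 91, 80, 31, 151 and 37 in KSR23 with overlap (log2 fold change 1.42, SE 0.52, adjusted p = 0.0390; quasi-likelihood adjusted p = 0.0765). Of 8 dendritic cell genes tested, Cd209a and Siglech fell by the likelihood ratio test, and the quasi-likelihood test called neither (adjusted p = 0.0617 and 0.0610; summed 15.8 to 16.9 CPM in WT and 9.03 to 14.1 CPM in KSR23). Whether the amount of lymphoid tissue in a sample had a part in the rise of Ccl19 was not tested.

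The ligands that home lymphocytes to epithelia split in both directions, and each of the 4 tested was called. Ccl20 (chromosome 1, 83116766 to 83119167), made by epithelial cells and the only chemokine known for CCR6, was at 6.59, 2.93, 6.71, 4.81 and 7.62 CPM in WT and 25.9, 158, 104, 70.0 and 128 CPM in KSR23. Every KSR23 library lay above every WT library, and KSR23 replicate 1 was the lowest of its group (log2 fold change 4.08, SE 0.44, adjusted p = 5.21e-14). It was the 1 ligand called in replicates 1 to 3 by both edgeR tests (4.18, adjusted p = 3.27e-05; quasi-likelihood adjusted p = 0.0472). Ccl28 (chromosome 13, 119623819 to 119654359), a mucosal ligand of CCR10 that also binds CCR3, was at 12.7, 12.2, 5.69, 13.5 and 9.61 CPM in WT and 13.8, 27.4, 63.0, 21.7 and 49.5 CPM in KSR23, with KSR23 replicate 1 just above the highest WT library (log2 fold change 1.71, SE 0.43, adjusted p = 0.00153; replicates 1 to 3: 1.81, adjusted p = 0.161).

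Ccl25 (chromosome 8, 4325210 to 4360020), the CCR9 ligand by which the small intestine recruits its own T cells, fell. It was at 548, 365, 443, 462 and 561 CPM in WT and 148, 235, 352, 189 and 309.9 CPM in KSR23, and the highest KSR23 library lay just under the lowest WT library (log2 fold change -0.95, SE 0.29, adjusted p = 0.0108; replicates 1 to 3: -0.85, adjusted p = 0.507). Without KSR23 replicate 4 it was not called (adjusted p = 0.0603, log2 fold change -0.83). Ccl27a (chromosome 4, 41769467 to 41774247), the CCR10 ligand of skin, was at 3.37, 2.76, 3.19, 2.74 and 2.67 CPM in WT and 0.896, 1.26, 0.835, 0.850 and 1.33 CPM in KSR23 with no overlap (log2 fold change -1.52, SE 0.30, adjusted p = 2.23e-05; replicates 1 to 3: -1.61, adjusted p = 0.101). Copies of Ccl27a share 33.3% of its 75-base stretches.

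Among the receptors of these ligands, Ccr6 rose with Ccl20, from 8, 15, 12, 8 and 11 WT counts to 90, 31, 40, 73 and 19 in KSR23 (log2 fold change 1.62, SE 0.44, adjusted p = 0.00318). Ccr9 was not called (2.30 ± 1.01 CPM in WT and 1.75 ± 0.789 in KSR23, SD of 5 libraries; adjusted p = 0.630), and Ccr10 had at most 6 counts in a library. The epithelial genes that rose beside Ccl20 and Ccl28 were Krt20, a keratin of differentiated villus cells (359 ± 29.1 CPM in WT and 1674 ± 777 in KSR23), and Cdh1 (219 ± 95.2 and 473 ± 179.8 CPM, SD of 5 libraries). Of the 8 genes of type 3 innate lymphoid cells, which respond to IL-23 and carry CCR6, Il22 rose and none fell (summed 122 to 168 CPM in WT and 95.6 to 177 CPM in KSR23). Il22 passed the count filter through KSR23 libraries only. What part epithelial mass or these cells had in the ligand levels was not tested.

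Both membrane-anchored ligands were abundant, and 1 rose. Cx3cl1 (chromosome 8, 94772009 to 94782427), fractalkine, which holds CX3CR1-bearing macrophages and T cells at epithelium and endothelium, was at 139, 232, 156, 187 and 137 CPM in WT and 370.4, 464, 267, 379 and 329.8 CPM in KSR23. The groups did not overlap, and KSR23 replicate 3 was the lowest of its group (log2 fold change 1.09, SE 0.26, adjusted p = 0.000677; replicates 1 to 3: 1.10, adjusted p = 0.287). Cx3cr1 did not rise with it (23.3 ± 3.38 CPM in WT and 15.7 ± 6.48 in KSR23, SD of 5 libraries; adjusted p = 0.226). Cxcl16, the CXCR6 ligand, was at 43.8 ± 21.8 CPM in WT and 37.7 ± 17.0 in KSR23 (adjusted p = 0.802), and its receptor Cxcr6 was not called (adjusted p = 0.915). A neighbour, Zmynd15, overlaps 18.3% of the exons of Cxcl16.

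The ELR CXC ligands, which attract neutrophils, lie together on chromosome 5 between 90759360 and 90905938, and 2 of the 5 rose while 1 fell. Cxcl1, Cxcl2, Cxcl3 and Cxcl5 were set beside the receptor CXCR2, and Cxcl15 beside no receptor. Promoter stretches of 3 of these neighbours are shown because they hold the same 9 letters of an NF-kB type motif (GGANNTTCC, in capitals). The stretches are on the plus strand of build GRCm38.p6 (mm10 coordinates), from the RefSeq promoter windows of 250 bases before and 50 after each start, at chr5:90891155-90891203, chr5:90903783-90903831 and chr5:90786009-90786057.
Cxcl1: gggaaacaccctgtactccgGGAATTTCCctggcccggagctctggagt
Cxcl2: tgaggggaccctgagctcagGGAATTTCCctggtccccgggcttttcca
Cxcl3: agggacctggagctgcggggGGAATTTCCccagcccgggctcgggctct
The match begins 70, 96 and 72 bases before the start of transcription, in that order.

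Searched on both strands, this motif was found in the windows of 6 of the 27 ligands that had one (22.2%; Ccl1, Ccl12, Cxcl1, Cxcl2, Cxcl3 and Cxcl10), and in 4.86% of the windows of all 27025 genes. By outcome, 2 of the 10 ligands that rose, none of the 4 that fell and 3 of the 9 not called held it. A STAT type motif (TTCNNNGAA) was found for Ccl17 and Cxcl14 (7.41% of ligands, 9.55% of all genes). These matches are letters in a window, not evidence of binding.

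Cxcl1 (chromosome 5, 90891241 to 90893115), also called KC, was at 2.17, 1.03, 6.53, 0.288 and 0.788 CPM in WT and 7.04, 18.6, 11.7, 8.16 and 24.1 CPM in KSR23. The highest WT library, replicate 3, came close to the lowest KSR23 library without reaching it (log2 fold change 2.69, SE 0.67, adjusted p = 0.00207; replicates 1 to 3: 1.97, adjusted p = 0.172). Without WT replicate 3 its log2 fold change was 3.70 (adjusted p = 3.05e-07). Cxcl5 (chromosome 5, 90759360 to 90761624), made by epithelial cells, was at 1.61, 1.20, 1.03, 1.35 and 0.901 CPM in WT and 3.70, 1.26, 6.72, 5.54 and 13.4 CPM in KSR23, where replicate 2 lay inside the WT range (log2 fold change 2.32, SE 0.51, adjusted p = 0.000261; replicates 1 to 3: 1.63, adjusted p = 0.255). Cxcl15 (chromosome 5, 90794534 to 90803067), known as lungkine from lung epithelium, went the other way, from 3.99, 2.69, 3.38, 2.82 and 5.71 CPM in WT to 1.07, 0.580, 1.51, 0.514 and 0.677 CPM in KSR23 with no overlap (log2 fold change -2.10, SE 0.40, adjusted p = 7.84e-06; replicates 1 to 3: -1.64, adjusted p = 0.137).

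Cxcl2 and Cxcl3 were not called. Cxcl2, also called MIP-2, was counted 327, 152, 456, 12 and 5 times in WT and 342, 533, 209, 233 and 290 times in KSR23 (6.55 ± 7.01 CPM and 8.53 ± 5.19 CPM, SD of 5 libraries; adjusted p = 0.819). Cxcl3 was counted 32, 21, 123, 0 and 1 times in WT and 28, 165, 77, 48 and 83 times in KSR23 (1.26 ± 1.87 and 2.39 ± 1.96 CPM; adjusted p = 0.614). Both genes varied widely inside each group, and WT replicates 4 and 5 held the fewest counts. Cxcl2 shares 4.57% of its 75-base stretches with Cxcl3.

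At 6 of the 34 ligands tested, WT replicates 4 and 5 both lay under WT replicates 1 to 3: Cxcl1, Cxcl2, Cxcl3, Ccl3, Ccl4 and Ccl27a. Among all genes tested this held for 2.59%. In KSR23 no ligand showed it (2.51% of all genes). Ccl3 had 106, 66, 137, 13 and 24 counts in WT and Ccl4 77, 53, 124, 23 and 19, against 23, 65, 42, 28 and 21 and 33, 51, 23, 49 and 36 in KSR23. At Ccl27a the step was small (3.37, 2.76 and 3.19 CPM in replicates 1 to 3 and 2.74 and 2.67 in replicates 4 and 5). The labels give no batch, date or litter that sets replicates 4 and 5 apart. With replicates 4 and 5 of both groups left out, the log2 fold change of Cxcl1 went from 2.69 to 1.97, of Cxcl2 from 0.38 to -0.05 and of Cxcl3 from 0.93 to 0.52. With WT replicate 3 alone left out, Cxcl2 went to 1.09 (adjusted p = 0.479) and Cxcl3 to 2.42 (adjusted p = 0.123). A replicate block gave 1.60 (adjusted p = 0.354) and 2.40 (adjusted p = 0.249).

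**Figure D3:**
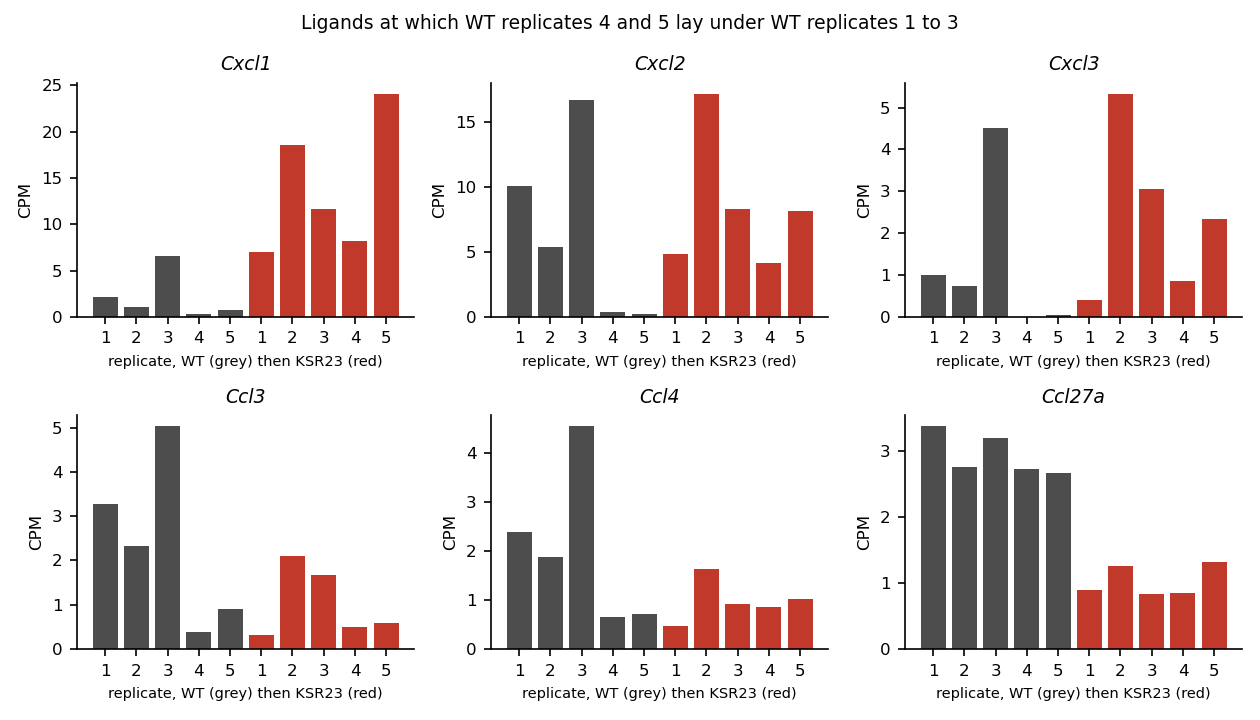
CPM in each library of the 6 ligands at which WT replicates 4 and 5 (grey) lay under WT replicates 1 to 3, with the KSR23 libraries in red. Cxcl2 had 5.37 to 16.7 CPM in WT replicates 1 to 3 and 0.346 and 0.188 CPM in replicates 4 and 5, while its KSR23 libraries reached from 4.13 to 17.2 CPM.

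Of 10 neutrophil genes listed, 9 were in the files and tested. Ltf and Elane were called higher and Retnlg and Ngp lower, and the summed level was 28.0 to 36.3 CPM in WT and 22.6 to 62.5 CPM in KSR23. Of this sum, Ltf took 1.89 ± 0.397 CPM in WT and 30.5 ± 12.5 in KSR23 (SD of 5 libraries). Retnlg took 15.0 ± 1.41 and 2.18 ± 0.958 CPM. Ltf, lactoferrin, is also made by epithelium. Elane was tested through KSR23 replicate 2 alone, with counts of 0, 0, 0, 0 and 0 in WT and 4, 7, 3, 3 and 0 in KSR23. S100a8 was at 3.35 ± 2.30 CPM in WT and 3.57 ± 1.59 in KSR23, and Cxcr2 at 0.225 ± 0.215 and 0.241 ± 0.104 CPM (SD of 5 libraries; adjusted p of Cxcr2 0.964). Pf4, the platelet CXC chemokine in the same stretch of chromosome 5, fell from 1062, 474, 977, 865 and 890 WT counts to 574, 208, 409, 405 and 325 in KSR23 (log2 fold change -1.60, SE 0.35, adjusted p = 0.000140), and Ppbp was not called (adjusted p = 0.870).

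The interferon-inducible ligands of CXCR3, which attract T helper 1 and NK cells, form another group on chromosome 5 (92321347 to 92365485), and 2 of the 3 rose. Their promoter stretches are shown because both hold an interferon response type motif (GAAANNGAA, in capitals), and Cxcl10 holds the NF-kB type motif as well. They are on the minus strand of build GRCm38.p6, at chr5:92328226-92328274, chr5:92349074-92349122 and chr5:92349019-92349067.
Cxcl9, interferon response type: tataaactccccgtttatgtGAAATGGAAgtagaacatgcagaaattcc
Cxcl10, interferon response type: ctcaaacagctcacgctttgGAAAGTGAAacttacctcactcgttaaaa
Cxcl10, NF-kB type: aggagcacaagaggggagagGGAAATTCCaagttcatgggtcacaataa
The interferon response type motif was found, on either strand, for 6 of the 27 ligands (22.2%; Ccl1, Ccl3, Ccl19, Cxcl9, Cxcl10 and Cxcl14) and for 9.76% of all genes. By outcome, 3 of the 10 ligands that rose (30%), none of the 4 that fell and 2 of the 9 not called held it.

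Cxcl9 (chromosome 5, 92321347 to 92328079), also called MIG, was at 2.63, 1.77, 2.75, 2.76 and 1.20 CPM in WT and 8.70, 2.77, 12.8, 9.01 and 13.3 CPM in KSR23. KSR23 replicate 2 stood apart from the others of its group and lay only just above the highest WT library (log2 fold change 2.06, SE 0.43, adjusted p = 7.76e-05; replicates 1 to 3: 1.79, adjusted p = 0.145). Cxcl10 (chromosome 5, 92346638 to 92348889), also called IP-10, was at 3.10, 1.87, 4.55, 1.93 and 3.38 CPM in WT and 12.8, 6.25, 13.2, 9.86 and 10.9 CPM in KSR23 with no overlap (log2 fold change 1.84, SE 0.35, adjusted p = 1.21e-05; replicates 1 to 3: 1.79, adjusted p = 0.0877). Cxcl11 was counted 3, 0, 0, 0 and 0 times in WT and 14, 2, 8, 19 and 0 times in KSR23 and was not called (adjusted p = 0.0819). It was called when WT replicate 1 or KSR23 replicate 5 was left out. The annotated gene Gm2673 overlaps 41.7% of the exons of Cxcl11. Cxcr3 did not rise with its ligands (1.46 ± 0.180 CPM in WT and 1.19 ± 0.0905 in KSR23, SD of 5 libraries; adjusted p = 0.557).

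None of the 3 stromal and epithelial CXC ligands was called. Cxcl12, the CXCR4 ligand of stromal cells, was at 37.5 ± 20.2 CPM in WT and 29.5 ± 17.1 in KSR23 (SD of 5 libraries; adjusted p = 0.719). Cxcl14 was at 7.44 ± 6.64 and 4.25 ± 5.06 CPM (adjusted p = 0.579). Both varied widely inside each group, Cxcl12 from 14.2 to 64.1 CPM in WT and from 5.92 to 49.1 CPM in KSR23, and Cxcl14 from 1.42 to 18.8 and from 0.419 to 11.5 CPM. Cxcl17, a mucosal ligand, had 1 to 18 counts in a library (adjusted p = 0.884). Among 8 stromal genes tested, Dcn and Acta2 fell and none rose (summed 2346 to 3802 CPM in WT and 1981 to 2608 CPM in KSR23), and among 8 endothelial genes tested, Cdh5 and Madcam1 fell and none rose (summed 154 to 199 CPM in WT and 149 to 183 CPM in KSR23).

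Of the 22 chemokine receptors tested, 6 were called (27.3%, against 18.5% of all genes), with Ccr4, Ccr6, Ccr7, Ackr1 and Ackr2 higher and Ccr3 lower, and in replicates 1 to 3 only Ccr4. Ackr1 and Ackr2 are atypical receptors that bind inflammatory chemokines without signalling through G proteins. Ackr1 went from 38, 6, 21, 23 and 24 WT counts to 137, 61, 102, 125 and 99 in KSR23 (log2 fold change 1.79, SE 0.43, adjusted p = 0.000755), with a neighbour, Cadm3, overlapping 25.7% of its exons, and Ackr2 from 107, 78, 29, 55 and 55 to 425, 79, 234, 251 and 297 (log2 fold change 1.51, SE 0.43, adjusted p = 0.00560). Of the 19 ligands called, 17 were set beside a receptor each is known to bind. The receptor was called in the same direction for 6 of them (Ccl11 and Ccl24 with Ccr3, Ccl17 and Ccl22 with Ccr4, Ccl19 with Ccr7, Ccl20 with Ccr6) and was not called for 11. Ccl28 was set beside Ccr10, but Ccr3, which it also binds, was called in the opposite direction. Ligands of 1 receptor are not independent of each other in this count, and the pairing was drawn up with the values known.

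**Figure D4:**
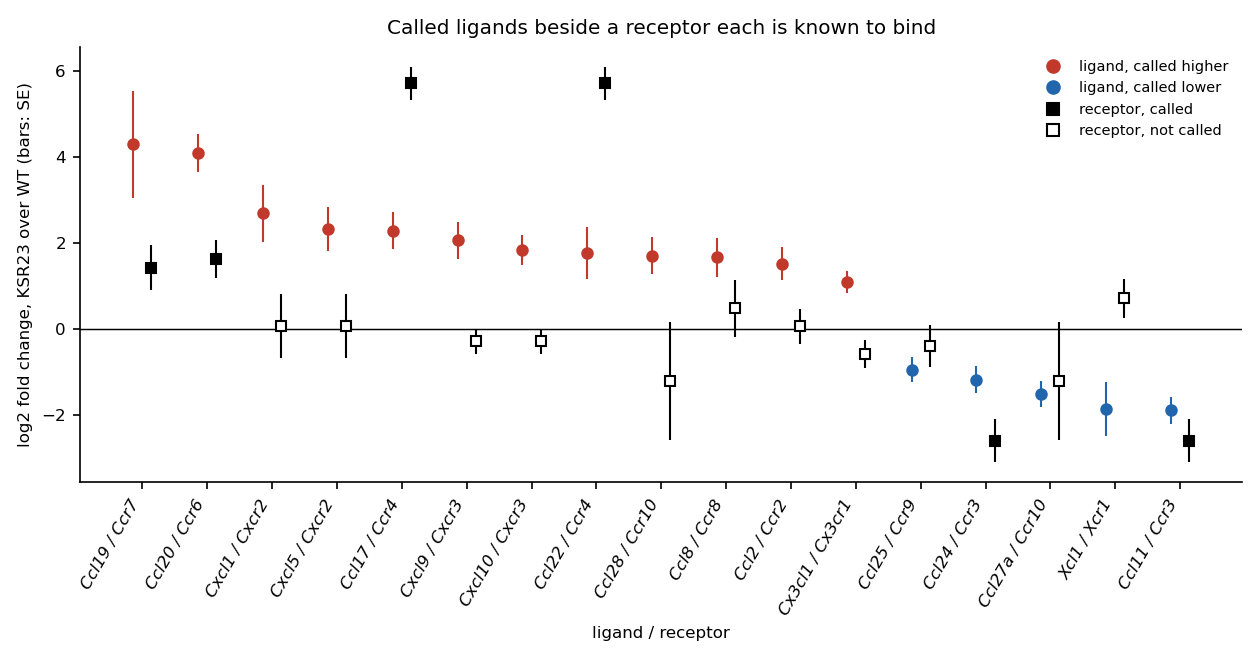
Log2 fold change, KSR23 over WT, of 17 called ligands (circles, red higher and blue lower) beside a receptor each is known to bind (squares, filled where called), with bars for the SE. Ccr4, at 5.71, lies above its ligands Ccl17 and Ccl22, and Ccr3, at -2.59, lies below Ccl11 and Ccl24.

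Of 16 cytokines known to induce chemokines, 14 were tested and 6 were called (18.5% of all genes). Il22, among these 6, passed the count filter through KSR23 libraries only, the group where it was high. Il22 had 0 or 1 count in WT libraries and 287, 137, 284, 250 and 329 in KSR23, and Il18, an epithelial cytokine that induces interferon-gamma, was at 25.7 ± 6.45 CPM in WT and 473 ± 181 CPM in KSR23 (SD of 5 libraries; log2 fold change 4.20, SE 0.33, adjusted p = 3.51e-26). Ifng (WT counts of 2, 1, 0, 1 and 8 against 42, 12, 29, 31 and 16 in KSR23; log2 fold change 2.86, SE 0.75, adjusted p = 0.00167) and Tnf (8, 10, 14, 1 and 12 and 84, 49, 43, 65 and 56; log2 fold change 2.18, SE 0.50, adjusted p = 0.000276) rose from low counts, as did Il17f (log2 fold change 3.42, SE 0.96, adjusted p = 0.00343), and Il4 fell. Il17a, a known inducer of Cxcl1, Cxcl5 and Ccl20, was below the count filter, and Il1a, Il1b, Il6, Il33, Csf2, Csf3, Lta and Ltb were not called. The part of these cytokines in the ligand levels was not tested.

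The summed level of the 39 ligands was 1384 ± 78.6 CPM in WT and 1228 ± 158 CPM in KSR23 (SD of 5 libraries), and the groups overlapped. Its make-up differed. Ccl25 took 28.6% to 39.0% of it in WT and 14.4% to 25.4% in KSR23, and Ccl11 11.8% to 12.7% and 2.44% to 5.48%. Cx3cl1 took 9.56% to 18.2% in WT and 19.3% to 36.3% in KSR23, and Ccl20 0.230% to 0.530% and 2.51% to 12.4%. Ccl6 ranged from 20.1% to 24.3% in WT and from 11.9% to 24.0% in KSR23. By group means per kb of transcript, which allows levels of different genes to be set side by side, the order in WT was Ccl25 (450 CPM per kb), Ccl6 (213), Ccl11 (157), Ccl24 (63.8) and Cx3cl1 (51.3). In KSR23 it was Ccl25 (233 CPM per kb), Ccl6 (163), Ccl20 (122, from 7.22 in WT), Cx3cl1 (109) and Ccl11 (42.4). Neighbours in both orders changed places between libraries. In WT, Cx3cl1 lay above Ccl24 in replicates 2 (69.9 and 51.3 CPM per kb) and 4 (56.4 and 56.0). Cx3cl1 lay above Ccl20 in KSR23 replicates 1 (112 and 32.6 CPM per kb) and 4 (114 and 88.1). Ccl20 lay above Ccl6 in replicate 2 (199 and 106), and Ccl6 above Ccl25 in replicate 1 (166 and 139.9).

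**Figure D5:**
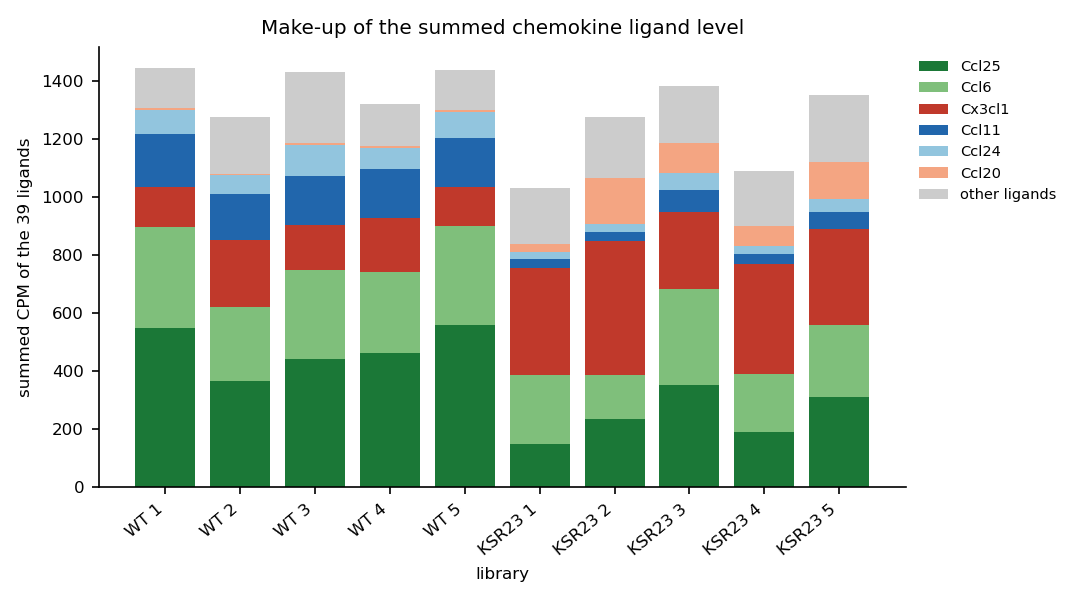
Summed CPM of the 39 ligands in each library, divided into 6 ligands and all others. The bars run from 1276 to 1447 CPM in WT and from 1031 to 1384 CPM in KSR23, and the shares of Cx3cl1 (red) and Ccl20 (orange) are larger and that of Ccl11 (dark blue) smaller in each KSR23 library.

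Neighbouring ligands did not always change together. On chromosome 8, the 3 ligands Ccl22, Cx3cl1 and Ccl17 lie within 66.4 kb and all rose. On chromosome 11, the 6 ligands between 82035571 and 82305690 included Ccl2 and Ccl8, which rose, and Ccl11 between them, which fell, with Ccl7 and Ccl12 not called. Farther along the same chromosome (83525778 to 83664683), Ccl5 fell and Ccl9, Ccl6, Ccl3 and Ccl4 were not called. In the cluster on chromosome 5 that holds the ELR ligands, Cxcl15, which fell, lies between Cxcl5 and Cxcl1, which rose. Positions are those of the GENCODE M21 annotation of mm10, which holds 38 of the 39 symbols (Ccl21c is the exception).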

How the data were processed

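Jejunum of WT and KSR23 mice was analysed in 5 libraries each, with groups and replicate numbers taken from the sample titles. Picogram amounts of total RNA were amplified with a low-input oligo-dT kit and sequenced as single reads of 75 bases, without molecular identifiers, so that precision from depth covers counting error only. The deposited counts are whole reads per gene symbol, not normalized. The authors aligned reads to mm10 with TopHat and counted them with htseq-count (TopHat2 2.1.0 and HTSeq 0.6.1p1 in the submitters' processing notes). The strand setting was not stated. Reads with more than 1 alignment (8.62 to 17.1 M per library) entered no gene.

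A gene was kept when any library had 5 counts of it or more, which left 17632 genes. WT and KSR23 were contrasted in edgeR 4.0.16 (R 4.3.3) by its likelihood ratio test, which the study's methods name, with a model of group alone and TMM factors (trimmed mean of M-values). Benjamini-Hochberg adjustment ran over all genes kept, and called means an adjusted p under 0.05. Counts of calls by the quasi-likelihood F test are given beside it. CPM use TMM-scaled totals. SE are those of the model. The study calls the libraries biological replicates, but the labels do not say whether they came from separate animals or litters. The p-values weigh the group difference against the spread between these libraries. If RNA was pooled, that is not the spread between animals. Alternatives were DESeq2 1.42.0, size factors by relative log expression (RLE), unscaled library totals, other count filters, each library left out in turn, replicates 1 to 3 alone, a replicate block and a Y-linked covariate. In simulated counts of this design (5 against 5), the scripts were tested for recovery of known changes before use.

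Named were all ligands called (values of each library), ligands not called with a mean of 1 CPM or more (group means), the rest by counts, and other genes only from lists of receptors, inducing cytokines and cell type markers. The ligands and lists were chosen with earlier results of these data known. 2 genes of these lists are not reported here. Promoter windows came from a RefSeq table of build GRCm38.p6, gene positions from GENCODE M21, and levels per kb used the principal transcript.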

Additional observations from a re-analysis of the deposited data

Results flagged for a closer look

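Each group of 5 libraries in which a ligand passed the count filter was searched, ligand by ligand, on the scale of log2(CPM + 0.05). The search was for a library whose gap to its neighbour took more than 0.71 of the group's range. In 66 such groups 2 were found, where chance alone would give about 3.3 (1 in 20). Ccl26 had 7 counts in KSR23 replicate 1 and 0 in every other library. Cxcl9 had 86 counts in KSR23 replicate 2 (2.77 CPM), while the next KSR23 library was at 8.70 CPM.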

How the results depend on the processing

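The counts of calls over 10 libraries kept within 1.5 times of 3261 genes, 19 ligands, 6 receptors and 6 cytokines under the alternatives tried, with these exceptions. With replicates 1 to 3 only, the calls of the likelihood ratio test were 579 genes, 2 ligands and 1 receptor, and those of the quasi-likelihood F test 140 genes, 1 ligand, 1 receptor and 2 cytokines. With 5 or more counts in every library, 1 cytokine was called, since low genes left the test. Leaving out each library in turn gave 2370 to 3802 genes, 17 to 19 ligands, 5 to 7 receptors and 6 to 7 cytokines. With the replicate block, 2202 genes, 19 ligands (the same 19), 5 receptors and 6 cytokines were called. The numbers do not pair the libraries: same-numbered libraries deviated from their group means with correlations of -0.747, 0.409, -0.693, 0.352 and 0.522, and 1 of the 5 WT libraries correlated best with its own number. Reversed were Cxcl2 in replicates 1 to 3 (-0.0535 by both tests), Cxcl2 (-0.60), Cxcl3 (-0.93) and Cxcl12 (0.0666) with the Y-linked term, and Cxcl16 without WT replicate 3 (0.0689) and without KSR23 replicate 3 (0.0142), where leaving out each library in turn gave -0.404 to 0.0689. None of these 4 ligands was called, and the cause was not tested. DESeq2, RLE factors, library totals and no count filter each called the same 19 ligands, and a filter of 5 counts in every library left Ccl17, Ccl19, Ccl22 and Xcl1 untested. RLE factors and library totals moved the median of all genes by -0.02 and -0.06 and the share of calls that were higher from 52.6% to 50.1% and 43.2%. Cxcl17 had 1 to 18 counts in a library, a depth at which a small change was not detectable.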
